A study of Mus musculus with 6 samples.

Results

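Transcript levels of 10 immediate early and AP-1 genes were examined in dendritic cells (DCs) sorted from the mouse thymus. The genes were Fos, Fosb, Jun, Junb, Jund, Egr1, Ier2, Atf3, Dusp1 and Nr4a1. They were chosen by symbol, and all 10 were found among the 23420 gene symbols of the count files. The 6 libraries formed 3 groups of 2, all from wild type mice. YG+ pDCs were plasmacytoid DCs (CD11c low, B220+) carrying yellow-green (YG) microspheres, taken from mice with MC38 tumours, a colon carcinoma line. The microspheres were injected into the tumour 12 days after inoculation, and thymic cells were sorted 2 days later. PBS pDCs (the same CD11c low, B220+ gate) and PBS Sirpa+ DCs (CD11c high, Sirpa+) came from mice given PBS, for which the labels name no tumour. The labels give every library the same batch and a treatment time of 2 weeks, and they give no age and no strain. They do not say whether libraries came from separate animals or from pools, so the p-values below measure the spread between these libraries, which may be technical.

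Immediate early genes are transcribed within minutes of a stimulus without new protein synthesis, and their transcripts are short-lived. Kinase cascades of the MAPK family act on factors already bound at these genes, among them SRF with its ELK partners, CREB and ATF2. The Fos and Jun proteins then pair through leucine zippers to form AP-1, which binds target genes, while Dusp1 removes phosphate from the kinases and so limits the response. The same genes are known to be induced in tissue dissociation and cell sorting, and in DCs they also accompany maturation. All libraries here were made from sorted cells, so the effect of handling cannot be told apart from the state of the cells before sorting.

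Gene totals ran from 177844 to 713966 counts per library, with 11238 to 13446 genes detected, and PBS pDC replicate 1 was the shallowest. A level of 3 counts corresponds to 4.21 to 19.1 CPM per library, where CPM is the count scaled to a common library size. The summed level of 12 pDC markers was 5678 to 8275 CPM in the 4 pDC libraries and 1020 and 1186 CPM in the Sirpa+ DC libraries. Sirpa itself was at 198 to 392 CPM in the pDC libraries and 575.5 and 748 CPM in the Sirpa+ DC libraries. The marker lists were chosen with earlier results of these data known, so these levels are no independent check of the gates. The PBS pDC libraries correlated least with each other, at Pearson r = 0.726 of log2 CPM across genes, against 0.934 in YG+ pDCs and 0.855 in Sirpa+ DCs. Genes are not independent replicates. Of uniquely placed reads, 0.842% to 3.36% lay in genes, least in PBS pDC replicate 1. The ratio of Tsix to Xist, a pair of genes on opposite strands, was 2.70 to 20.5 over the 6 libraries, again most extreme in PBS pDC replicate 1. No source used here says whether counting took strand into account, and the part of strand in the levels below was not tested. Because these are bulk libraries, fewer cells of a type and less RNA per cell cannot be told apart.

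Promoter sequences are shown for the 3 genes whose level was called lower in PBS pDCs than in Sirpa+ DCs (Junb, Dusp1 and Atf3) and for 2 that did not follow them (Jun and Nr4a1). The RefSeq promoter table (GRCm38.p6) held 8 of the 10 genes, without Egr1 and Ier2. Each line gives the 250 bases before the RefSeq start in that table, 5′ to 3′ on the strand of the gene. For Dusp1, Atf3 and Nr4a1 this start lies inside the GENCODE gene bounds given further on, so it is not the outermost annotated start. Capitals mark the core of the cAMP response element (TGACG, or CGTCA where it lies on the other strand) and the octamer TGANNTCA. These elements are known to be bound by CREB and ATF factors and by Jun paired with ATF2.
Junb, chr8:84978749-84978998, minus strand: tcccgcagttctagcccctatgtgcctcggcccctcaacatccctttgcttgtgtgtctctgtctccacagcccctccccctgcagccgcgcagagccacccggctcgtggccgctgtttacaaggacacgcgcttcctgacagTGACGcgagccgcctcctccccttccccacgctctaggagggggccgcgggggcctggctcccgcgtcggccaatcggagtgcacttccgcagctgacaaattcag
Dusp1, chr17:26508473-26508722, minus strand: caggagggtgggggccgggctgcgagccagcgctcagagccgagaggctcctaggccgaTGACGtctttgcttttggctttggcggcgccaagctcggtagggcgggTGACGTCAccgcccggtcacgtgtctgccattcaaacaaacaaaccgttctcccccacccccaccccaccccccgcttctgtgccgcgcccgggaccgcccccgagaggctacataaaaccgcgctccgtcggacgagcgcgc
Atf3, chr1:191183334-191183583, minus strand: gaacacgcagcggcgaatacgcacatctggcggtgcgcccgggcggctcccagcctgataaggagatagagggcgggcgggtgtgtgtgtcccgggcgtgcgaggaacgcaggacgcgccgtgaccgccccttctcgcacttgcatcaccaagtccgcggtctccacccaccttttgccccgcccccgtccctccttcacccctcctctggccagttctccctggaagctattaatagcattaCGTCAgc
Jun, chr4:95052223-95052472, minus strand: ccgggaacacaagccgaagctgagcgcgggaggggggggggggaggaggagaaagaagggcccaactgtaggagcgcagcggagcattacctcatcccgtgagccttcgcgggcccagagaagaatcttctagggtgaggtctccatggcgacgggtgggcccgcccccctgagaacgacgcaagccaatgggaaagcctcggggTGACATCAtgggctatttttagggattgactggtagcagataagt
Nr4a1, chr15:101266596-101266845, plus strand: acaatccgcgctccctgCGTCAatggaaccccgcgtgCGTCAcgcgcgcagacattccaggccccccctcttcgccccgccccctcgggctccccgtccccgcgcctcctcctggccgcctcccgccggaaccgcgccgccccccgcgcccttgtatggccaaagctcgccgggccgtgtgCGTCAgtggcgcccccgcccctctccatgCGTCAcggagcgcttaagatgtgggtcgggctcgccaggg

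The core TGACG, searched on both strands, was present in 6 of the 8 promoters (Fos, Fosb, Junb, Atf3, Dusp1 and Nr4a1), beside 17.8% of 32851 RefSeq promoter windows of the same length. Dusp1 held the full palindrome TGACGTCA from 143 to 136 bases before its start, a sequence found in 1.55% of promoters. Nr4a1 held 4 copies of the core, at 233, 213, 69 and 40 bases before the start, all on the other strand. Junb held 1 copy 106 bases before the start, and Atf3 held 1 copy 7 bases before it. Jun lacked the core and had the related octamer TGACATCA from 45 to 38 bases before the start. TGANNTCA, which overlaps the palindrome, was in 3 of 8 (Jun, Jund and Dusp1) beside 11.9% of promoters. The Jund window ends at 70697738, upstream of the GENCODE start of Jund at 70698949, so it does not adjoin the gene bounds given further on. The AP-1 site TGANTCA was in 0 of 8 windows (6.75% of promoters) and the CArG box of SRF was in 0 of 8 (1.47%). Sites further upstream than these windows were not searched for, and Egr1 and Ier2 had no window. The absence of a match therefore does not show that these genes lack AP-1 or SRF sites. The core was thus present both in genes that were lower in PBS pDCs and in Nr4a1, which was not. A match is a description of the letters and not of a bound site.

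Together the 10 genes held 0.194% and 0.196% of gene counts in PBS pDCs, 0.305% and 0.279% in YG+ pDCs, and 0.330% and 0.326% in Sirpa+ DCs. The summed level was 2200 and 1877 CPM in PBS pDCs, 3055 and 2827 CPM in YG+ pDCs, and 3647 and 3411 CPM in Sirpa+ DCs. The 3 groups did not overlap in this sum. Sirpa+ DCs were highest and PBS pDCs lowest, with YG+ pDCs between them.

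**Figure D1:**
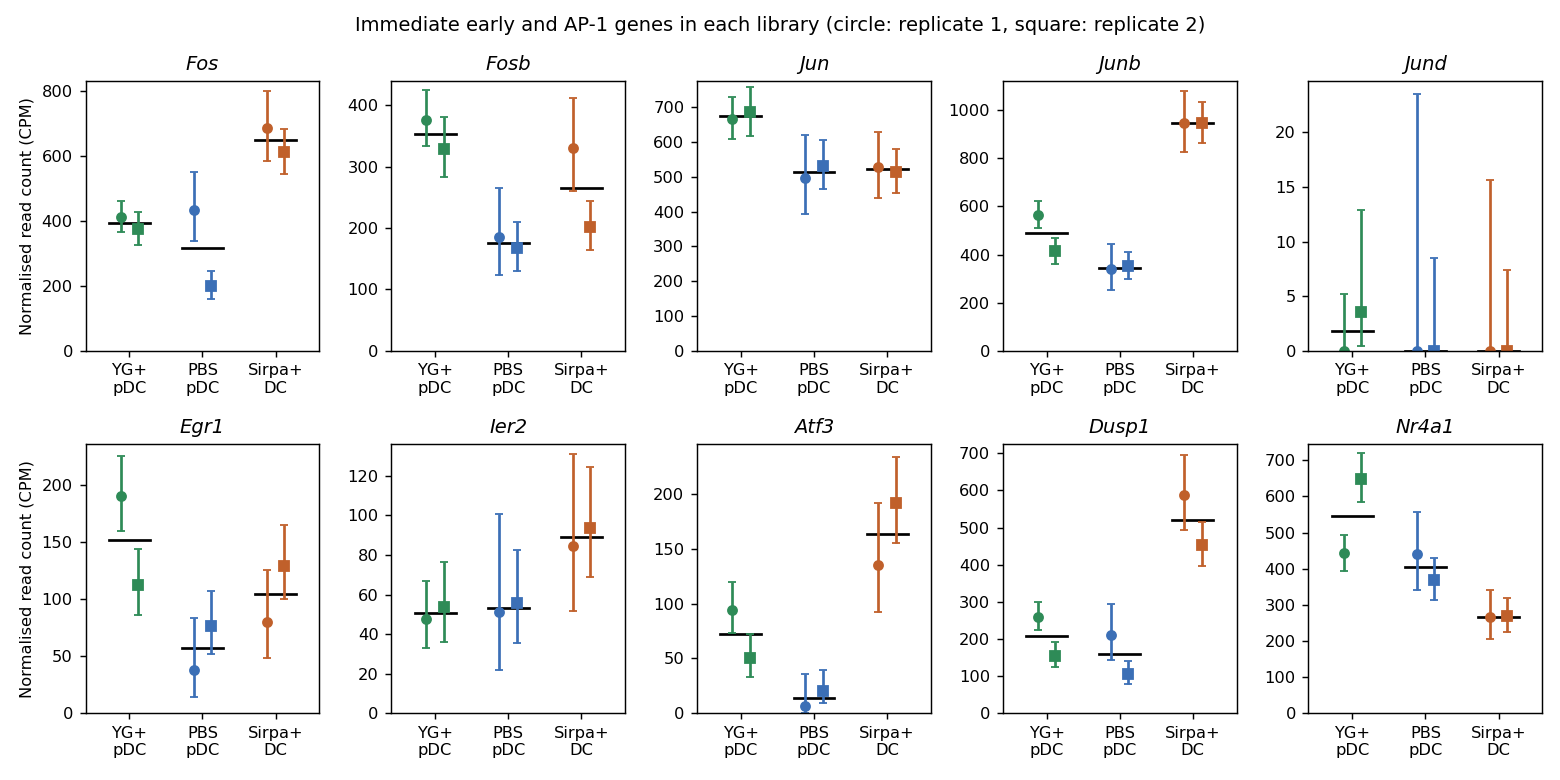
Level of each gene in each library (CPM, linear axis starting at 0 in each panel), with 1 marker per library and a short bar for the mean of the 2 libraries of a group. Junb, Dusp1 and Atf3 are highest in both Sirpa+ DC libraries, Nr4a1 is lowest there, and Jund is at 0 in all libraries except YG+ pDC replicate 2, where it is 3.58 CPM.

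Among the Fos proteins, which form AP-1 only with a Jun partner, Fos and Fosb differed in pattern. Fos (chromosome 12, 85473890 to 85477273, GRCm38, plus strand) was at 433.7 and 199 CPM in PBS pDCs, 413 and 374 CPM in YG+ pDCs, and 685.5 and 612.1 CPM in Sirpa+ DCs. Both Sirpa+ DC libraries lay above all pDC libraries, and the PBS pDC libraries spanned the YG+ pDC values. Fosb (chromosome 7, 19302696 to 19310051, minus strand) was at 185 and 167 CPM in PBS pDCs, 376 and 329 CPM in YG+ pDCs, and 330.1 and 201 CPM in Sirpa+ DCs. Here the PBS pDC libraries were lowest, and the YG+ pDC and Sirpa+ DC libraries overlapped.

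The Jun family encodes the partners of the Fos proteins. Jun itself (chromosome 4, 95049034 to 95052222, minus strand) varied little, at 497.5 and 532 CPM in PBS pDCs, 667 and 685 CPM in YG+ pDCs, and 529 and 514 CPM in Sirpa+ DCs. The YG+ pDC libraries were highest and the other two groups overlapped. Junb (chromosome 8, 84974484 to 84978718, minus strand), a weaker activator of transcription than Jun, was at 338 and 352 CPM in PBS pDCs, 563 and 413 CPM in YG+ pDCs, and 947.8 and 947 CPM in Sirpa+ DCs. The 3 groups were apart, in the order Sirpa+ DCs, YG+ pDCs, PBS pDCs. Jund (chromosome 8, 70698949 to 70700616, plus strand), which in many cells is expressed without a stimulus, had 2 counts in YG+ pDC replicate 2 and 0 in the other 5 libraries. At 3 counts over a group, a count of 0 allows up to 5.09 CPM in PBS pDCs and 4.07 CPM in Sirpa+ DCs, and counts of Jund were too few to test. Of its exon bases 52.6% lie under an exon of a gene on the opposite strand, beside 7.52% for Junb and 7.28% for Jun. The genes opposite Jund (Gm11175) and Jun (Junos) are not among the gene symbols counted, whereas that opposite Junb is. The strand setting is unknown, which leaves the values of every gene here uncertain, not only those of these 3. Prdx2, the gene opposite Junb, had 3 to 16 counts per library.

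Atf3, a stress-induced partner of Jun that is known to repress inflammatory genes in myeloid cells, spread most between groups. Atf3 (chromosome 1, 191170296 to 191218039, minus strand) was at 6.38 and 20.8 CPM in PBS pDCs, 94.1 and 50.1 CPM in YG+ pDCs, and 135 and 191 CPM in Sirpa+ DCs. No groups overlapped. The PBS pDC values rest on 1 and 9 counts, and the exact 95% Poisson interval of the first is 0.162 to 35.5 CPM, for counting error only.

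Egr1 and Nr4a1 are transcription factors outside AP-1. Egr1, a zinc finger factor (chromosome 18, 34859823 to 34864984, plus strand), was at 38.3 and 76.4 CPM in PBS pDCs, 191 and 113 CPM in YG+ pDCs, and 80.4 and 129.6 CPM in Sirpa+ DCs. PBS pDC libraries were lowest, and those of YG+ pDCs and Sirpa+ DCs overlapped. Nr4a1 (chromosome 15, 101254269 to 101274795, plus strand), an orphan nuclear receptor induced by antigen receptor and other signals, was at 440.1 and 368 CPM in PBS pDCs, 442.5 and 649.5 CPM in YG+ pDCs, and 267 and 269 CPM in Sirpa+ DCs. It ran opposite to Junb and Atf3, with both Sirpa+ DC libraries below all 4 pDC libraries.

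Ier2, a small nuclear protein induced with the others (chromosome 8, 84661331 to 84662852, minus strand), was at 51.0 and 55.5 CPM in PBS pDCs, 47.8 and 53.7 CPM in YG+ pDCs, and 84.6 and 93.7 CPM in Sirpa+ DCs. The pDC groups overlapped, and the Sirpa+ DCs lay above both. Dusp1, the MAPK phosphatase that acts as the negative arm of the response (chromosome 17, 26505590 to 26562128, minus strand), was at 210.5 and 106 CPM in PBS pDCs, 259.9 and 156 CPM in YG+ pDCs, and 588 and 453 CPM in Sirpa+ DCs. The pattern was that of Fos, with the pDC groups overlapping below both Sirpa+ DC libraries.

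Divided by transcript length, Junb had the highest mean level of the 10 in each group, at 269.9 ± 58.6 CPM per kilobase in YG+ pDCs (SD, n = 2), 191 ± 5.35 in PBS pDCs and 524 ± 0.317 in Sirpa+ DCs. In Sirpa+ DCs the length-scaled level then ran from Fos (308 ± 24.6) and Dusp1 (261.5 ± 48.2), whose values are within their spread of each other, through Jun (164 ± 3.23) to Nr4a1 (105 ± 0.713). In PBS pDCs Jun (161 ± 7.70), Nr4a1 (158 ± 19.99) and Fos (150.1 ± 78.7) came next and did not differ beyond their spread, and that of Fos took in Junb. In YG+ pDCs the genes next to Junb were Nr4a1 (214 ± 57.4), Jun (212 ± 4.02) and Fos (187 ± 13.1). Nr4a1 and Jun were again within their spread of each other and of Junb. Atf3 was the lowest of the 9 genes above the floor in PBS pDCs, at 6.86 ± 5.15 CPM per kilobase. In Sirpa+ DCs it stood at 82.4 ± 19.96, within the spread of Fosb (70.3 ± 24.1).

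PBS pDCs were compared with PBS Sirpa+ DCs to see how the subsets differ without microspheres. Atf3, Dusp1 and Junb were lower in PBS pDCs, with log2 fold changes of -3.34, -1.76 and -1.46. That is 3 of 9 genes tested called lower and 0 called higher (edgeR quasi-likelihood test, Benjamini-Hochberg adjusted p under 0.05), beside 6.89% of 8141 genes called lower, 4.54% called higher and 11.4% in either direction. Jund did not pass the filter on low counts. The log2 fold change was above 0 for 1 of the 9 genes, beside 53.3% of all genes. At an unadjusted p under 0.05, 4 were lower and 0 higher, beside 13% and 11% of all genes. The groups did not overlap for 7 genes lower and 1 higher, beside 24.2% and 22.9% of all genes. The median log2 fold change of the 9 genes was -0.81, beside 0.08 over all genes.

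Atf3 averaged 13.6 ± 10.2 CPM in PBS pDCs (SD, n = 2) and 163 ± 39.6 CPM in Sirpa+ DCs, and its log2 fold change was -3.34 ± 0.60 (SE; adjusted p = 0.00608, edgeR). Dusp1 averaged 158.5 ± 73.6 and 520 ± 95.9 CPM, with a log2 fold change of -1.76 ± 0.49 (adjusted p = 0.0410, edgeR). Junb averaged 345 ± 9.67 and 947 ± 0.574 CPM, with -1.46 ± 0.41 (adjusted p = 0.0439, edgeR). For Junb the exact 95% Poisson intervals of the Sirpa+ DC libraries were 827.8 to 1080 and 863.8 to 1036 CPM. The SD of 0.574 CPM is thus smaller than counting error alone and is no measure of the spread. For Junb both Sirpa+ DC libraries lay above both PBS pDC libraries. For Dusp1 the lower Sirpa+ DC library (453 CPM) still lay above the higher PBS pDC library (210.5 CPM). Fos had a log2 fold change of -1.06 ± 0.46 (adjusted p = 0.190, edgeR), and Egr1, Ier2 and Fosb had -0.81, -0.73 and -0.59 at adjusted p from 0.358 to 0.463. Jun was at -0.02 ± 0.39, with a 95% interval of -0.88 to 0.85, and Nr4a1 at 0.59 ± 0.42, with -0.33 to 1.5. Those intervals leave room for differences of either sign. Without Sirpa+ DC replicate 2 none of the 3 was called (Atf3 adjusted p = 0.0658, Dusp1 0.152, Junb 0.204, edgeR). Dusp1 and Junb also missed the threshold without Sirpa+ DC replicate 1 or without either YG+ pDC library, and Dusp1 without PBS pDC replicate 2, whereas Fos was called without PBS pDC replicate 1 (-1.69, adjusted p = 0.0110, edgeR).

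YG+ pDCs were compared with PBS pDCs to describe cells that carried the injected microspheres. No gene of the 10 was called, and neither was any of the 8141 tested, so 0 of 9 stands beside 0% called (edgeR). At an unadjusted p under 0.05, Atf3, Egr1 and Fosb were higher and 0 were lower, beside 4.69% of all genes higher and 6.72% lower. The log2 fold change was above 0 for 8 of the 9 genes (54.9% of all genes). The groups did not overlap for 6 genes higher and 0 lower, beside 26.5% and 19.3%. The median was 0.44, beside 0.08 over all genes. DESeq2 called 111 genes and limma-voom 0. None of the 9 was among them, but DESeq2 gave no adjusted p for Atf3, Egr1 and Ier2. The microsphere injection, the YG gate and the tumour all separate these groups and cannot be told apart.

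Atf3 averaged 72.1 ± 31.1 CPM in YG+ pDCs against 13.6 ± 10.2 CPM, a log2 fold change of 2.15 ± 0.61 (95% interval 0.81 to 3.49; adjusted p = 0.316, edgeR). Egr1 averaged 152 ± 55.4 against 57.3 ± 26.9 CPM, at 1.31 ± 0.50 (adjusted p = 0.358, edgeR). Fosb averaged 353 ± 33.4 against 176 ± 12.99 CPM, at 1.01 ± 0.43 (adjusted p = 0.401, edgeR). These differences failed the correction for multiple tests, although the higher group did not overlap the lower in any of the 3. Junb, Dusp1, Nr4a1, Jun and Fos had log2 fold changes of 0.50 to 0.34, with adjusted p from 0.688 to 0.817 (edgeR), and Ier2 had -0.09 ± 0.44. The 95% intervals of Fos (-0.67 to 1.35), Jun (-0.47 to 1.25) and Ier2 (-1.06 to 0.88) were wide, and a p over the threshold does not show equal levels. On simulated counts for this comparison the fit called 43.6% of genes changed 4-fold and 80.7% of those changed 8-fold, so a 4-fold change was missed more often than called. The simulation took each gene's mean over all 6 libraries and the spread of the fit itself. Its rates are averages over genes and do not apply to Atf3 in particular.

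**Figure D2:**
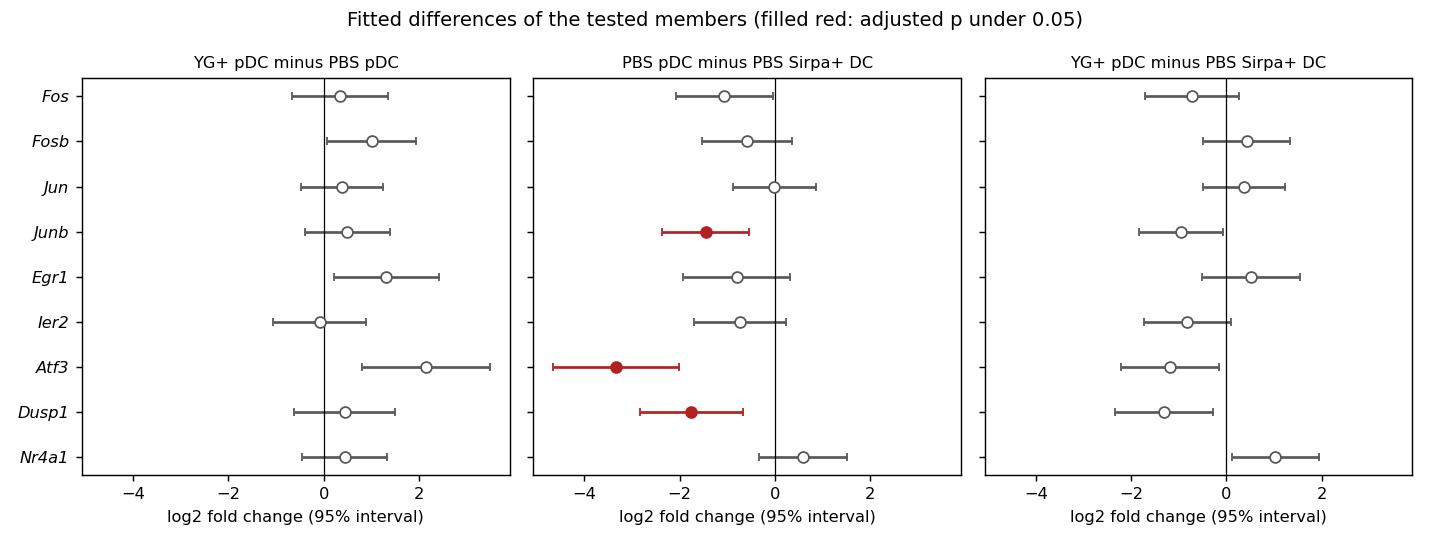
Log2 fold change of each of the 9 tested genes in the 3 comparisons, with bars for the 95% interval from the edgeR fit and filled markers where the adjusted p was under 0.05. Atf3, Dusp1 and Junb are filled for PBS pDCs against Sirpa+ DCs, at -3.34, -1.76 and -1.46, and no gene is filled in the other comparisons.

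Markers of other cells moved with Atf3 and Egr1 in YG+ pDCs. The summed level of 11 monocyte and macrophage markers was 1027 and 770.5 CPM in PBS pDCs, 4537 and 1802 CPM in YG+ pDCs, and 6250 and 10220 CPM in Sirpa+ DCs. Of the 10 that were tested, 10 had a log2 fold change above 0 in YG+ pDCs against PBS pDCs, 8 had an unadjusted p under 0.05 and 0 were called (edgeR). Over all genes, 54.9% had a log2 fold change above 0, and 4.69% were higher at that p. Fcgr1 and Mertk, receptors that mark macrophages, were at 0 in both PBS pDC libraries, and at 8.43 and 0 CPM and 71.6 and 8.95 CPM in YG+ pDCs. YG+ pDC replicate 1 had more of these markers than replicate 2, and also more Atf3, Egr1, Dusp1, Junb, Fos and Fosb, but less Nr4a1, Jun and Ier2. The 12 markers of mature DCs summed to 880 and 798 CPM in PBS pDCs, 2232 and 1714 CPM in YG+ pDCs, and 7054 and 5808 CPM in Sirpa+ DCs. In PBS pDCs against Sirpa+ DCs, 9 of 10 tested monocyte and macrophage markers and 11 of 12 mature DC markers were called lower (edgeR), in the same direction as Atf3, Dusp1 and Junb. Over all genes, 6.89% were called lower and 4.54% higher. In the other direction, 12 of 12 pDC markers, 6 of 6 tested B cell markers and 3 of 4 tested T cell markers were called higher (edgeR). The 4 T cell markers tested were Cd4, Cd8a, Cd8b1 and Lck. Cd3d, Cd3e, Cd3g, Rag1, Rag2 and Themis did not pass the filter, and Cd3g and Themis were at 0 in all pDC libraries. The 12 markers of Sirpa+ conventional DCs summed to 784.5 and 1101 CPM in PBS pDCs, 1441 and 1329 CPM in YG+ pDCs, and 2615 and 3563 CPM in Sirpa+ DCs. In PBS pDCs against Sirpa+ DCs, 5 of the 11 tested were called lower and 1 (Clec10a) higher, beside 6.89% and 4.54% (edgeR). Sirpa and Itgax were lower there but not called (adjusted p = 0.0754 and 0.0988, edgeR). Of the 11 tested, 10 had a log2 fold change above 0 in YG+ pDCs against PBS pDCs, 3 were higher at an unadjusted p under 0.05 and 0 were called (edgeR). The shares of all genes were again 54.9% and 4.69%, with 0% called. The part of these cells or states in the levels of the immediate early genes was not tested. Summed T cell markers (10 genes, 563 to 705 CPM) overlapped between the pDC groups. B cell markers (8 genes) summed to 784.5 and 731 CPM in PBS pDCs and to 705 and 628 CPM in YG+ pDCs. Neutrophil markers (7 genes) summed to 31.9 and 9.26 CPM in PBS pDCs and to 71.6 and 59.05 CPM in YG+ pDCs.

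YG+ pDCs were also set against Sirpa+ DCs, a comparison that shares libraries with each of the others. In this contrast 0 of 9 genes were called, beside 3.07% of all genes called higher, 4.09% lower and 7.16% in either direction (edgeR). The log2 fold change was above 0 for 4 of the 9, beside 51.6% of all genes. The smallest adjusted p was 0.121. At an unadjusted p under 0.05, 1 was higher and 3 lower, beside 10.2% and 12.6% of all genes. The groups did not overlap for 2 genes higher and 5 lower, beside 32.8% and 29.1%. The median log2 fold change was -0.72, beside 0.04 over all genes. Dusp1 was at -1.32 ± 0.47, Atf3 at -1.18 ± 0.47 and Junb at -0.96 ± 0.40, while Nr4a1 was at 1.03 ± 0.41 (adjusted p from 0.121 to 0.186, edgeR). These 4 genes were called without PBS pDC replicate 1, a library outside the contrast that adds to the estimate of spread (adjusted p from 0.0146 to 0.0486, edgeR). They were also called in a fit of the 4 libraries compared (adjusted p from 0.0174 to 0.0438, edgeR), and Atf3 and Dusp1 without PBS pDC replicate 2 (adjusted p = 0.0410 and 0.0180, edgeR).

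The make-up of the response was read within libraries as ratios of counts, chosen after the counts were seen and therefore given with no test. Junb had 1.79 and 1.84 counts per count of Jun in the Sirpa+ DC libraries, with exact 95% binomial intervals of 1.43 to 2.25 and 1.58 to 2.15. In YG+ pDCs the ratio was 0.844 and 0.603, and in PBS pDCs 0.680 and 0.661. Junb counts thus exceeded those of Jun in both Sirpa+ DC libraries and fell short of them in the 4 pDC libraries. Nr4a1 had 0.453 and 0.595 counts per count of Dusp1 in Sirpa+ DCs, 1.70 and 4.17 in YG+ pDCs, and 2.09 and 3.46 in PBS pDCs. Nr4a1 to Fos was 0.389 and 0.440 in Sirpa+ DCs, and 1.01 to 1.85 in the pDC libraries. Both ratios with Nr4a1 separated Sirpa+ DCs from pDCs and did not separate the pDC groups. Fosb to Fos was 0.912 and 0.880 in YG+ pDCs, 0.427 and 0.837 in PBS pDCs, and 0.482 and 0.329 in Sirpa+ DCs. For Fosb to Fos the interval of PBS pDC replicate 2 (0.604 to 1.16) took in both YG+ pDC values. A ratio within a library does not depend on scaling between libraries. It is not corrected for transcript length, so a ratio below 1 does not place Junb below Jun per kilobase, and the values serve only to compare libraries.

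**Figure D3:**
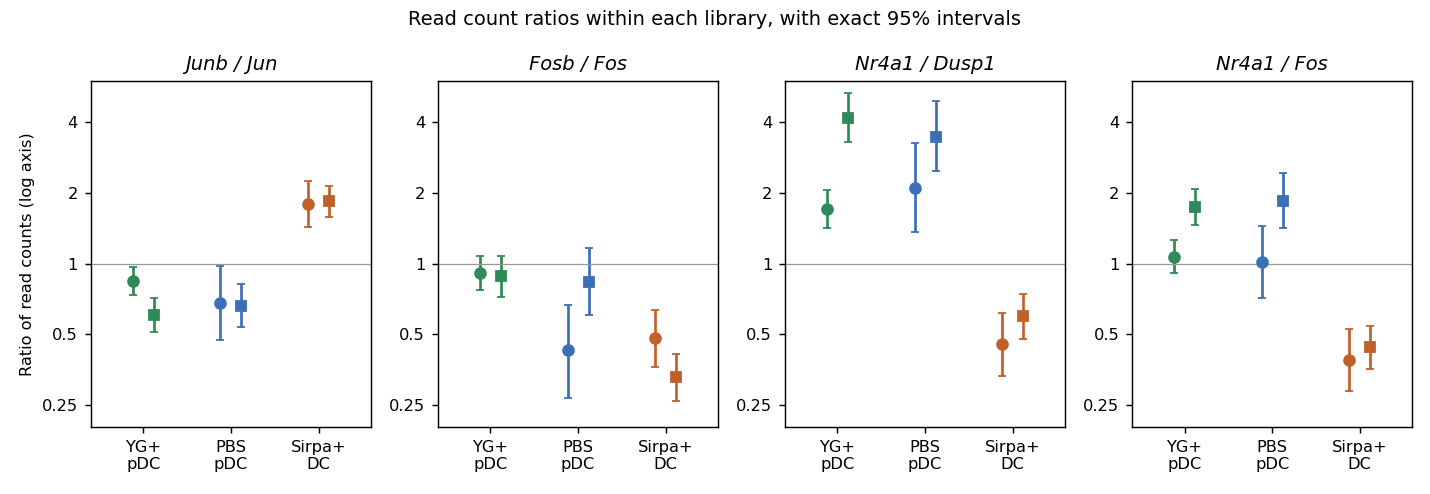
Count ratios within each library on a log axis, with exact 95% binomial intervals as bars, for counting error only. Junb to Jun lies above 1 in both Sirpa+ DC libraries (1.79 and 1.84) and below 1 in the 4 pDC libraries (0.603 to 0.844), and the ratios with Nr4a1 lie on the other side.

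Across the 6 libraries, Pearson correlations of log2 CPM between the 9 genes are given as a description, since the points share groups and depth. Fos followed Dusp1 (r = 0.946), and Junb followed Dusp1 (0.919), Atf3 (0.912) and Ier2 (0.856). Nr4a1 ran against Ier2 (-0.816), Junb (-0.732) and Dusp1 (-0.692), and with Jun (0.707). Fosb followed Jun (0.753), and Egr1 followed Atf3 (0.755). Junb, Dusp1, Atf3, Fos and Ier2 each had both Sirpa+ DC libraries above all pDC libraries, and Jun, Nr4a1, Fosb and Egr1 did not. The correlations partly restate this group difference and do not define a set. Fos with Atf3, for example, was at 0.607, below Egr1 with Atf3.

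Among 6979 other genes that averaged 20 CPM or more, those most like each gene over the 6 libraries were named by the highest correlation of log2 CPM. Myof (r = 0.997) and Eps8 (0.996), which encode a membrane repair protein and an actin regulator, were most like Junb. Atp2b1 (0.997), a calcium pump of the plasma membrane, and C3 (0.995), a complement component, were most like Atf3. Mxi1 (0.996) and Nacc2 (0.994), both repressors of transcription, were most like Fos. Baz2a (0.985) and Btg1 (0.977), the latter an antiproliferative gene that is itself induced early, were most like Nr4a1. Egr1 was most like Hist1h4d (0.988) and Bzrap1 (0.987), and Ier2 most like Chmp4b (0.992). Jun was most like Trmt6 (0.994) and Tsc22d2 (0.990), Fosb most like Mafg (0.985), and Dusp1 most like Arhgap22 (0.995). With this many candidates and 6 libraries, values this high are a description only.

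Of 18 other AP-1, ATF, CREB and Maf genes, 15 were tested. In PBS pDCs against Sirpa+ DCs 4 were called lower and 0 higher, beside 6.89% and 4.54% of all genes, with a median log2 fold change of -0.48. Fosl2, a Fos family member with a slower time course, was at 89.3 and 64.8 CPM in PBS pDCs and 478 and 510.4 CPM in Sirpa+ DCs (-2.72 ± 0.45, adjusted p = 0.00374, edgeR). Batf3 and Creb5 were at 0 in both PBS pDC libraries, so they were at least 8.63-fold and 7.63-fold lower, taking 3 counts over the group as the floor. In YG+ pDCs Fosl2 was at 211 and 165 CPM, above both PBS pDC libraries. Of the 15, 0 were called in YG+ pDCs against PBS pDCs (edgeR), with a median of 0.60. At an unadjusted p under 0.05, 3 were higher and 1 lower, beside 4.69% and 6.72% of all genes (edgeR). Fosl2 had 1.32 ± 0.44 (adjusted p = 0.316, edgeR). Against Sirpa+ DCs, Batf3, a factor of conventional DC development, was called lower in YG+ pDCs (-3.19 ± 0.83, adjusted p = 0.0453, edgeR). That is 1 of 15 called lower and 0 higher, beside 4.09% and 3.07% of all genes.

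A list of 41 other immediate early genes, of which 37 were tested, split in both directions between PBS pDCs and Sirpa+ DCs. There 10 were called lower and 3 higher in PBS pDCs, beside 6.89% and 4.54% of all genes, with a median of -0.60. Ier3, an apoptosis regulator, was at 12.8 and 6.94 CPM in PBS pDCs and 118.5 and 151.5 CPM in Sirpa+ DCs (-3.92 ± 0.60, adjusted p = 0.00264, edgeR). Nr4a3, another receptor of the Nr4a family, was at 102 and 162 CPM in PBS pDCs and 893 and 772 CPM in Sirpa+ DCs (-2.62 ± 0.45, adjusted p = 0.00458, edgeR). Nr4a2, the remaining receptor of this family, was at 19.1 and 30.1 CPM against 157 and 143.5 CPM (-2.50 ± 0.47, adjusted p = 0.00767, edgeR). Nr4a2 and Nr4a3 were thus lower in PBS pDCs, whereas Nr4a1 had a log2 fold change above 0 that was not called. Nfil3, a bZIP repressor, was at 25.5 and 53.2 CPM against 279 and 313 CPM (-2.79 ± 0.47, adjusted p = 0.00441, edgeR). The others called lower were Sgk1, Arc, Plk2, Socs3, Gadd45b and Csrnp1. Those called higher were Cd69, Sik1 and Klf2. Cd69, an early activation receptor of lymphocytes, was at 185 and 211 CPM in PBS pDCs and 16.9 and 23.9 CPM in Sirpa+ DCs (3.21 ± 0.49, adjusted p = 0.00257, edgeR).

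In YG+ pDCs against PBS pDCs, 36 of these 37 genes had a log2 fold change above 0, beside 54.9% of all genes, with a median of 0.64. The groups did not overlap for 27 higher and 0 lower, beside 26.5% and 19.3% of all genes. None of the 37 was called, and 9 were higher and 0 lower at an unadjusted p under 0.05, beside 4.69% and 6.72% (edgeR). Plk2, a kinase induced by stress, was at 0 and 13.9 CPM in PBS pDCs and 71.6 and 60.8 CPM in YG+ pDCs (2.75 ± 0.76, adjusted p = 0.316, edgeR). Nr4a3 was at 338.5 and 397 CPM in YG+ pDCs, above both PBS pDC libraries (1.44 ± 0.44, adjusted p = 0.316, edgeR). The summed level of the 41 genes was 5728 and 6109 CPM in PBS pDCs, 8602 and 9058 CPM in YG+ pDCs, and 8179 and 8354 CPM in Sirpa+ DCs. The kinase gene Sik1 alone was at 542 and 692 CPM in PBS pDCs, 810.5 and 1091 CPM in YG+ pDCs, and 114 and 124 CPM in Sirpa+ DCs, so it weighs on the order of the sums. The median log2 fold change of YG+ pDCs against Sirpa+ DCs was -0.01 over the 37 genes, beside 0.04 over all genes. Against Sirpa+ DCs, Cd69 (3.87 ± 0.49), Sik1 (2.99 ± 0.45), Klf2 (2.78 ± 0.57) and Dusp4 were called higher in YG+ pDCs and Ier3 (-2.57 ± 0.46), Nfil3 and Gadd45b lower (adjusted p from 0.00188 to 0.0380, edgeR). That is 4 of 37 called higher and 3 lower, beside 3.07% and 4.09% of all genes.

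Of 28 kinases and factors that act upstream of these genes 24 were tested, and in PBS pDCs against Sirpa+ DCs 2 were called lower and 0 higher, with a median of -0.10. That share is near the 6.89% of all genes called lower. Mkl1, a coactivator of SRF, was at 108 and 81.0 CPM in PBS pDCs and 419 and 293 CPM in Sirpa+ DCs (-1.93 ± 0.43, adjusted p = 0.0168, edgeR). Mapk8, which encodes the kinase JNK1 that acts on Jun, was at 6.38 and 16.2 CPM against 80.4 and 71.8 CPM (-2.52 ± 0.65, adjusted p = 0.0299, edgeR). Mkl1 was also lower in YG+ pDCs than in Sirpa+ DCs, at 91.3 and 94.8 CPM (adjusted p = 0.0185, edgeR). There 1 of 24 was called lower and 0 higher, beside 4.09% and 3.07% of all genes. In YG+ pDCs against PBS pDCs 0 of 24 were called and 0 had an unadjusted p under 0.05 (edgeR). At that p, 4.69% of all genes were higher and 6.72% lower. Mapk8 was at 1.30 ± 0.67 and Mapk14, which encodes the kinase p38 alpha, at 0.70 ± 0.42 there (adjusted p = 0.492 and 0.563, edgeR).

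Heat shock, metallothionein and other genes linked to dissociation were read beside the immediate early genes, since handling is known to induce both. Of 20 such genes 19 were tested. In PBS pDCs against Sirpa+ DCs, Mt1, a metallothionein, was called lower, at 0 and 2.31 CPM against 33.9 and 47.9 CPM (-4.43 ± 1.15, adjusted p = 0.0302, edgeR), and 0 were called higher. That is 1 of 19 called lower, near the 6.89% of all genes called lower, and 4.54% of all genes were called higher. The median of this list was -0.13. The inducible chaperone genes Hspa1a and Hspa1b were detected in each library. Hspa1a was at 587 and 615.5 CPM in PBS pDCs, 549 and 821 CPM in YG+ pDCs, and 855 and 811.5 CPM in Sirpa+ DCs. Hspa1b was at 804 and 907 CPM in PBS pDCs, 722 and 1091 CPM in YG+ pDCs, and 779 and 748 CPM in Sirpa+ DCs. Hspa1a and Hspa1b share near-identical sequence, so the split of reads between them is uncertain. For Hspa1b both Sirpa+ DC libraries lay below both PBS pDC libraries, and the pDC groups overlapped.

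In YG+ pDCs against PBS pDCs 0 of the 19 genes were called and 0 had an unadjusted p under 0.05, with a median of 0.36 (edgeR). At that p, 4.69% of all genes were higher and 6.72% lower. Hspa8, a constitutive chaperone, was at 389 and 613 CPM in PBS pDCs and 889 and 1031 CPM in YG+ pDCs (0.93 ± 0.44, adjusted p = 0.452, edgeR). Hsp90aa1, the inducible form of HSP90, was at 344 and 433 CPM in PBS pDCs, 669 and 780 CPM in YG+ pDCs, and 195 and 303 CPM in Sirpa+ DCs. Its log2 fold change was 0.89 ± 0.42 in YG+ pDCs against PBS pDCs (adjusted p = 0.453, edgeR) and 1.53 ± 0.43 against Sirpa+ DCs (adjusted p = 0.0548, edgeR). Against Sirpa+ DCs 0 of the 19 were called, with 2 higher and 1 lower at an unadjusted p under 0.05 (edgeR). Those counts stand beside 10.2% and 12.6% of all genes. Summed levels of the list were 4816 and 6312 CPM in PBS pDCs, 7381 and 8868 CPM in YG+ pDCs, and 5687 and 6272 CPM in Sirpa+ DCs. Unlike the 10 genes, this sum overlapped between PBS pDCs and Sirpa+ DCs. Both sums were higher in YG+ pDCs than in PBS pDCs. No unsorted or undissociated sample is among the 6 libraries, and the part of handling in these levels was not tested.

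**Figure D4:**
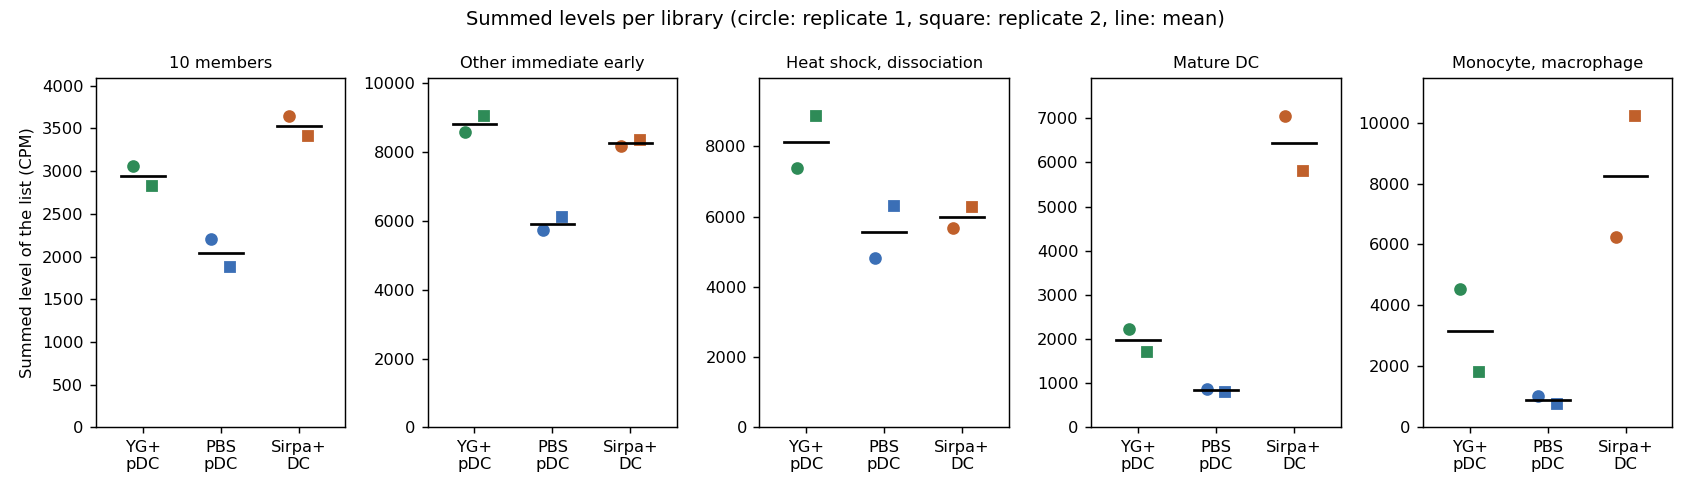
Summed CPM of each gene list in each library (linear axes starting at 0, 1 marker per library). The 10 genes and mature DC markers are highest in Sirpa+ DCs, the heat shock and dissociation list is highest in YG+ pDCs (7381 and 8868 CPM), and monocyte and macrophage markers range from 770.5 CPM in PBS pDC replicate 2 to 10220 CPM in Sirpa+ DC replicate 2.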

How the data were processed

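RNA was measured in 6 libraries prepared from 5 ng of total RNA each (Ovation SoLo RNA-Seq Mouse), per the labels' protocols. The authors deposited whole-number read counts per gene symbol for each library, not normalised, with 5 closing lines that name no gene. Those lines held 97.7% to 99.5% of records and were left out of library sizes and tests. The submitters' processing notes name bcl2fastq 2.17 and mm10, while for aligner, counter, annotation and strand the sources used here give nothing. Without molecular identifiers in the counts, intervals and floors cover counting error only.

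The 10 genes and the other gene lists were chosen with earlier results of these data known, and lists can share genes. Genes passing edgeR's filterByExpr (8141) were scaled by TMM (factors 0.924 to 1.09). All 6 libraries entered 1 fit of group means in edgeR 4.0.16 (glmQLFit and glmQLFTest, R 4.3.3), since 2 libraries a group leave 3 residual degrees of freedom, and a gene was called where its Benjamini-Hochberg adjusted p over all genes was under 0.05. CPM is the count divided by the scaled total of tested genes. Intervals of fold changes were taken from the fit. Chi-square per degree of freedom between the 2 libraries of a group was 9.20 for PBS pDCs, 4.71 for Sirpa+ DCs and 2.52 for YG+ pDCs, beyond counting noise. This does not show whether the libraries came from separate animals. Each library was entered as a replicate, and the spread may be technical. Likeness was the Pearson r of log2 CPM (prior count 2), and the 2 genes of highest r were taken per member. Of each other list the up to 4 called genes with the smallest p per comparison were named, or up to 2 where none was called. Some genes that these rules take are not reported here. Nr4a2, Dusp4, Hspa1a, Hspa1b, Fcgr1, Mertk, Prdx2 and the further called genes were named after their values were seen.

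Length scaling used the longest protein-coding transcript of GENCODE M21 (GRCm38), which also gave coordinates and opposite-strand exons. Promoters came from RefSeq (GRCm38.p6). The fit was tested on simulated data in 3 runs of 8141 genes, where it called 0.094% of unchanged genes. The alternatives changed the scaling, dropped the filter or set it at a mean of 10 CPM, or used DESeq2 1.42.0, limma-voom (limma 3.58.1), 4 abundant transcripts removed, only the 4 libraries in question, a replicate block, or 1 library fewer. Groups of 2 were not screened for outlying values.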

Additional observations from a re-analysis of the deposited data

How the results depend on the processing

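No gene of the 10 was called in YG+ pDCs against PBS pDCs under the alternatives run, of which DESeq2 gave no adjusted p for Atf3, Egr1 and Ier2. The number of all genes called moved from 0 to 141 with no filter on low counts and to 111 with DESeq2 (16 higher, 95 lower). Leaving out 1 library at a time gave 0 to 870 genes, the highest without PBS pDC replicate 2. In PBS pDCs against Sirpa+ DCs the 931 genes became 580 in a fit of the 4 libraries compared, and 214 (without Sirpa+ DC replicate 2) to 1297 (without PBS pDC replicate 2) with 1 library left out. The members called there were 1 (Atf3) in the 4-library fit and 0 to 4 with 1 library left out. Junb lost its call under upper quartile scaling, with no filter and with the 10 CPM filter (adjusted p = 0.0530, 0.0515 and 0.0522, edgeR), which left 2 called. Over the 15 alternatives Atf3 was called in 14 (adjusted p from 1.387e-05 to 0.0658), Dusp1 in 9 and Junb in 7. In YG+ pDCs against Sirpa+ DCs the 583 genes became 894 with no filter, 1480 in the 4-library fit, and 69 (without Sirpa+ DC replicate 1) to 1487 (without PBS pDC replicate 1). The members called there were 4 in the 4-library fit and 0 to 4 with 1 library left out. The sign changed for values near 0: Jun in PBS pDCs against Sirpa+ DCs was 0.0290 with upper quartile scaling, 0.0102 with the 10 CPM filter, 0.0405 without PBS pDC replicate 1 and 0.0008339 without Sirpa+ DC replicate 2. In YG+ pDCs against PBS pDCs, leaving out 1 library moved Ier2 from -0.14 (without PBS pDC replicate 1) to 0.0254 (without PBS pDC replicate 2) and Fos from 0.97 to -0.10 (the same libraries). Group levels moved by more than 1 SD in 17 of 60 recomputed values, by at most 15.9%. Upper quartile scaling put the median of all genes at 0.12 in PBS pDCs against Sirpa+ DCs, beside 0.08. The cause of these shifts was not tested beyond the smaller number of libraries or genes in each fit.

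Deviations of same-numbered libraries from their group means correlated at 0.30 between PBS pDCs and Sirpa+ DCs, and at -0.12 and -0.10 between YG+ pDCs and each of these, over 8141 genes. No label ties a number to an animal or day, and with 2 libraries a group these values do not settle whether the numbers pair the samples. A replicate block called 942 genes in PBS pDCs against Sirpa+ DCs, 0 between the pDC groups and 635 in YG+ pDCs against Sirpa+ DCs, with 3, 0 and 0 members, changing no call of a member. In YG+ pDCs against PBS pDCs a crossed block in the 4 libraries, added after the data were seen, gave 1 gene and 0 members, and the same-number block there 0 genes.

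Depth limits these results most in PBS pDC replicate 1, where 3 counts are 19.1 CPM, above its Atf3 level of 6.38 CPM.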
